A study of Homo sapiens with 12 samples.

Results

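Genes whose coding sequence is exceptionally long were followed through 12 RNA-seq libraries of H1299, an established line of human lung cancer cells of the non-small-cell type. The genes are PRKDC, DYNC1H1, HUWE1, UBR4, HERC2, MYCBP2, BIRC6, MACF1, AHNAK and PLEC. They were chosen by name, for proteins of over 4000 amino acids, and all 10 are among the 16172 genes of the deposited table. No protein table was used here, so these lengths were not measured again. Every cell had received siRNA for 72 h, either a control siRNA (siCtrl) or a mix of 2 siRNAs against EIF3G (siEIF3G), which encodes a subunit of translation initiation factor 3. Of the lysate 10% was kept as input RNA. The rest was spun through a sucrose gradient from 10% to 50%, and the polysomal fraction, which holds mRNA loaded with several ribosomes, was collected. The 4 groups of 3 libraries are siCtrl input, siCtrl polysomal, siEIF3G input and siEIF3G polysomal. The libraries were poly(A)-selected. The labels do not say whether replicates are separate cultures, or whether a replicate number marks 1 lysate in both fractions, so p-values measure only the spread between these libraries, which may be technical. A cell line treated with siRNA is a transient depletion in 1 genetic background.

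An mRNA is translated by ribosomes that follow one another along its coding sequence. At an equal spacing of ribosomes, a long coding sequence carries more of them, and a heavily loaded mRNA sediments further into a sucrose gradient. TPM, the unit of the deposited values, counts transcripts per 1000000 transcripts after division by transcript length. Levels of different genes can then be set side by side as far as reads cover whole transcripts. Coverage along these long mRNAs was not examined here. As shares of a library, TPM do not give the amount of mRNA per cell, and in these bulk libraries fewer cells with an mRNA and less of it per cell cannot be told apart.

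The members fall into 3 families by role. PRKDC encodes the catalytic subunit of the DNA-dependent protein kinase, which joins broken DNA ends together with the Ku proteins. HUWE1, UBR4, HERC2, MYCBP2 and BIRC6 attach ubiquitin to other proteins. DYNC1H1 (the motor heavy chain of cytoplasmic dynein), MACF1 (a linker of microtubules and actin), AHNAK (a membrane-associated scaffold) and PLEC (plectin, a linker of intermediate filaments) serve the cytoskeleton. In the RefSeq annotation of GRCh38.p14 the genes span from 61.6 kb of genome for PLEC to 403 kb for MACF1, introns included. HUWE1 lies at chrX:53532096-53686719, BIRC6 at chr2:32357023-32618878 and MACF1 at chr1:39084167-39487138. HERC2 has partial copies elsewhere in the genome, so its value is uncertain where reads were shared between them.

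Of the 10 genes, 8 were counted in the RefSeq promoter table, which does not show that the others lack an entry there. The windows of 5 counted genes with a single annotated start are printed. Their mRNAs moved together from library to library, AHNAK less closely. Moving together did not set these 5 apart, since members that are not printed did so too. Each window runs 5′ to 3′ on the strand of the gene. The 100 bases before the annotated start are in lower case and the first 20 transcribed bases in capitals. On GRCh38.p14 they lie at chr11:62545807-62545926 (minus strand, AHNAK), chr14:101964473-101964592 (plus strand, DYNC1H1), chr15:28322160-28322279 (minus strand, HERC2), chr13:77327075-77327194 (minus strand, MYCBP2) and chr1:19210247-19210366 (minus strand, UBR4).
AHNAK: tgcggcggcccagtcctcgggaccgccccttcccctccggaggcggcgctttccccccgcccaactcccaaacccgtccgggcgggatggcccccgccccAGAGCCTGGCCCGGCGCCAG
DYNC1H1: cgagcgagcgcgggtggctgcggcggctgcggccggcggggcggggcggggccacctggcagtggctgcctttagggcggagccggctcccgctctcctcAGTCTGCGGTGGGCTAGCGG
HERC2: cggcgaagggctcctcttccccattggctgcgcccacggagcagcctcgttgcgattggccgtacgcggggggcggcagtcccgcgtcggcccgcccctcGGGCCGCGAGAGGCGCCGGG
MYCBP2: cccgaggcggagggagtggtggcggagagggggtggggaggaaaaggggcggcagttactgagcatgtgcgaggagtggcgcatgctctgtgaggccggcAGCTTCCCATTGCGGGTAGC
UBR4: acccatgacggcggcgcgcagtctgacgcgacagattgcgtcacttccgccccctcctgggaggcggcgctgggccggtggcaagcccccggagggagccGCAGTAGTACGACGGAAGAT
These are GC-rich starts. Over the table's 300 bases (250 before and 50 after the start) the GC content of the 5 was 61.3% in MYCBP2, 70.0% in AHNAK and UBR4, 72.3% in HERC2 and 75.7% in DYNC1H1, against a median of 58.7% over 35116 promoters. The dinucleotide CG occurred 17 times in MYCBP2, 25 in AHNAK, 39 in HERC2, 43 in UBR4 and 44 in DYNC1H1. The median promoter held 14, and 46.0% of promoters held at least as many as MYCBP2. None of the 5 contained TATAA on either strand (searched as TATAA or TTATA), which 20.4% of promoters did. The transcribed part begins with A or G in each of the 5 windows. The mRNAs of ribosomal proteins, in contrast, are known to begin with a C followed by a run of pyrimidines.

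The knockdown was visible in the libraries. EIF3G averaged 1043 TPM in siCtrl input and 64.3 in siEIF3G input, and 1800 and 115 in the polysomal groups. The keratin genes KRT8 and KRT18 and the mesenchymal gene VIM were expressed, EPCAM averaged at most 0.19 TPM in any group, and PECAM1, ALB and COL1A1 stayed at or below a group mean of 0.05. MBP averaged up to 3.38 TPM, CDH2 up to 3.97 and ACTA2 up to 6.36 in a group. The level of the giant mRNAs depended on the library as much as on the group, because 3 libraries stood apart from theirs. Across genes, the mean correlation of siCtrl input 1 was 0.922 with the other libraries of its group and 0.957 with the siCtrl polysomal libraries. For siEIF3G input 2 these values were 0.929 and 0.958, and for siEIF3G polysomal 3 they were 0.949 and 0.953. The other 9 libraries were nearer to their own group. Because of this, the counts and medians of the members and of each gene list between the fractions are given with and without these 3.

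PRKDC, at chr8:47773111-47960136, reached the highest input level of the 10 in a single library. In siCtrl input it stood at 6.83, 47.79 and 71.9 TPM, and in siCtrl polysomal at 1.5, 2.0 and 0.47. In siEIF3G input it stood at 49.5, 7.35 and 31.91 TPM, and in siEIF3G polysomal at 1.97, 1.56 and 7.56. The lowest siCtrl input library was thus above each siCtrl polysomal library, while the siEIF3G groups met, since siEIF3G polysomal 3 was above siEIF3G input 2.

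HUWE1, whose product ubiquitinates p53 and MCL1 among others, followed the same order at a lower level. Its TPM were 2.92, 17.84 and 27.69 in siCtrl input and 1.55, 1.88 and 0.59 in siCtrl polysomal. They were 20.69, 3.77 and 13.76 in siEIF3G input and 1.82, 1.69 and 6.29 in siEIF3G polysomal. Again the siCtrl groups were apart and the siEIF3G groups overlapped through the libraries siEIF3G input 2 and siEIF3G polysomal 3.

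DYNC1H1, on which the dynein complex is assembled, stood at 2.62, 14.84 and 22.5 TPM in siCtrl input and at 1.69, 1.5 and 0.68 in siCtrl polysomal. With siEIF3G it stood at 18.92, 3.98 and 14.04 TPM in input and at 1.49, 1.43 and 5.13 in polysomal RNA. As in PRKDC and HUWE1, the siCtrl groups were apart, and siEIF3G polysomal 3 was above siEIF3G input 2.

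UBR4, a recognition protein for N-degrons, ranged from 2.26 to 15.59 TPM in siCtrl input and from 0.53 to 1.37 in siCtrl polysomal. HERC2, a ligase that acts at DNA breaks, ranged from 1.49 to 11.74 and from 0.33 to 0.72. BIRC6, an inhibitor of apoptosis that also conjugates ubiquitin, ranged from 0.44 to 7.73 and from 0.11 to 0.42. In all 3 genes the lowest siCtrl input value, that of replicate 1, was above the highest siCtrl polysomal value. MYCBP2, a ligase known for its role in axons, was the least abundant, at 0.31, 2.72 and 4.39 TPM in siCtrl input against 0.1, 0.28 and 0.04 in siCtrl polysomal. MACF1 stood at 1.14, 10.47 and 17.07 TPM in siCtrl input and at 0.88, 1.71 and 0.25 in siCtrl polysomal, so its groups overlapped, with siCtrl input 1 below siCtrl polysomal 2.

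PLEC (chr8:143915153-143976745) did not follow this order, and AHNAK followed it only outside the 3 libraries that stood apart. AHNAK stood at 5.44, 16.66 and 25.18 TPM in siCtrl input and at 6.46, 9.01 and 7.83 in siCtrl polysomal. In siEIF3G libraries it stood at 18.79, 10.1 and 13.53 TPM in input and at 9.62, 8.12 and 12.2 in polysomal RNA. Its siCtrl input 1 was below each siCtrl polysomal library, while the other 2 input libraries were above them. PLEC stood at 33.45, 42.4 and 43.13 TPM in siCtrl input and at 65.67, 65.63 and 52.44 in siCtrl polysomal. In siEIF3G input it stood at 54.71, 41.79 and 46.05 TPM, and in siEIF3G polysomal at 62.85, 100 and 24.93. Every siCtrl polysomal library was above every siCtrl input library, and siEIF3G polysomal 3 was the lowest of the 12 libraries for PLEC.

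**Figure D1:**
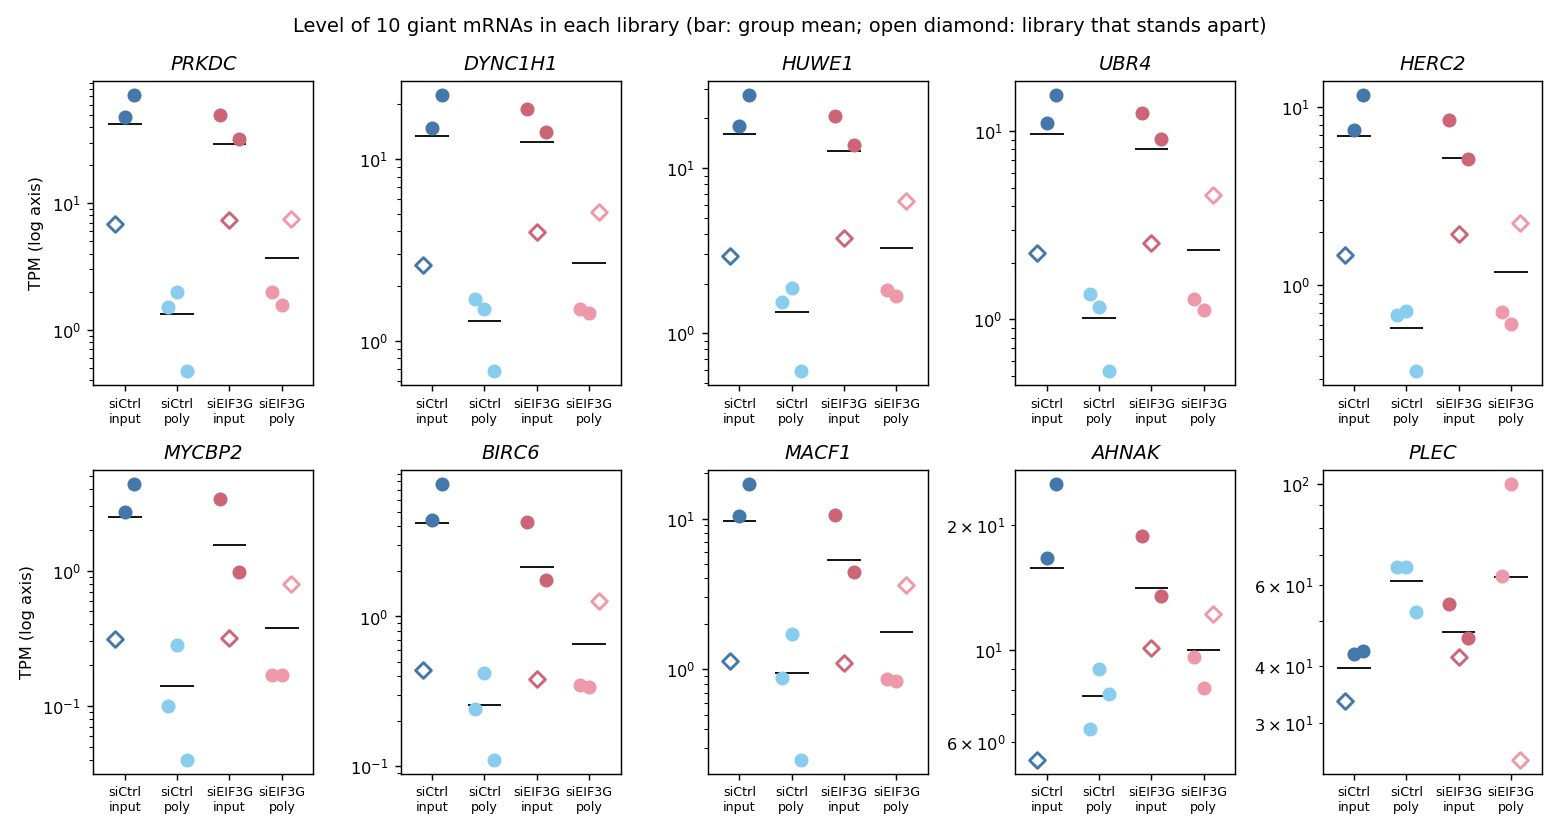
TPM of each of the 10 giant mRNAs (vertical log axes, each gene on its own scale) in 4 groups of 3 libraries; black bars are group means and open diamonds are siCtrl input 1, siEIF3G input 2 and siEIF3G polysomal 3. In every gene but PLEC the filled polysomal points lie below the filled input points of the same siRNA. PLEC has its highest point, 100 TPM, in siEIF3G polysomal 2.

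The order of the genes by level differed between the fractions. In siCtrl input, PRKDC averaged 42.2 TPM ± 32.9 (SD, n = 3) and PLEC 39.7 ± 5.39, which do not differ beyond their spread. HUWE1 (16.2 ± 12.5), AHNAK (15.8 ± 9.90) and DYNC1H1 (13.3 ± 10.0) came next and also lay within their spread, with MYCBP2 last at 2.47 ± 2.05. In siCtrl polysomal RNA, PLEC averaged 61.2 ± 7.63 and AHNAK 7.77 ± 1.28, and every library of the pair was above every library of the other 8 genes. HUWE1 (1.34 ± 0.670), PRKDC (1.32 ± 0.780) and DYNC1H1 (1.29 ± 0.537) were then indistinguishable. The polysomal mean of PRKDC was 3.14% of its input mean in siCtrl cells. For HUWE1 this was 8.30%, for DYNC1H1 9.68%, for UBR4 10.6%, for AHNAK 49.3% and for PLEC 154%. In siEIF3G cells the corresponding values were 12.5%, 25.6%, 21.8%, 28.8%, 70.6% and 132%. All these means include the 3 libraries that stood apart, so the percentages of the 2 siRNAs are no measure of a knockdown effect. In PRKDC, siEIF3G polysomal 3 stood at 7.56 TPM against 1.97 and 1.56 in its group. Its siEIF3G input 2 stood at 7.35 TPM against 49.5 and 31.91.

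Against input RNA of control cells, giant mRNAs were mostly scarce in polysomal RNA. Differences between groups were fitted with limma on log2(TPM + 1) over 10605 genes that averaged at least 1 TPM, a minimum that all 10 members passed; this scale understates the change of genes with low values. With Benjamini-Hochberg adjustment and a threshold of 0.05, 7 of the 10 were lower in siCtrl polysomal RNA and 0 were higher, where 28.9% of all genes tested were lower and 7.98% higher. Without overlap between the groups, 7 members were lower (28.9% of all genes) and 1, PLEC, was higher (16.9% of all genes). The median difference of the 10 members was -2.04, and that of all genes tested was -0.96.

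PRKDC had the largest of these differences, -3.77 on the log2 scale (SE 0.84, adjusted p = 0.0184), the fifth lowest of the 10605 genes. All 5 ubiquitin genes were lower. HUWE1 differed by -2.50 (SE 0.74, adjusted p = 0.0363), UBR4 by -2.13 (adjusted p = 0.0386) and HERC2 by -2.04 (adjusted p = 0.0342). BIRC6 differed by -1.71 (adjusted p = 0.0462) and MYCBP2 by -1.39 (adjusted p = 0.0492), both close to the threshold. On this scale 31.6% of all genes lay lower than MYCBP2, whose level is near the pseudocount of 1.

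Of the 4 cytoskeletal genes, DYNC1H1 was lower, by -2.30 (SE 0.70, adjusted p = 0.0378). MACF1 differed by -2.04 (adjusted p = 0.0516) and missed the threshold. AHNAK differed by -0.72 (95% interval -1.74 to 0.29, adjusted p = 0.197), and 56.4% of all genes lay lower. PLEC was the one member with a positive difference, 0.62 (interval -0.24 to 1.47, adjusted p = 0.194).

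These calls depended on single libraries. With limma, 0 members were called without siCtrl input 2, without siCtrl input 3, or without any one of the 3 siCtrl polysomal libraries. The number was 1 without siEIF3G polysomal 1 and 3 without siEIF3G polysomal 2, libraries that enter only the shared estimate of the spread. Without siCtrl input 1 it was 9. Fitting only the siCtrl groups left 1 call, PRKDC (adjusted p = 0.0422). The share of all genes called in these fits is not given here. Calls lost by the members therefore cannot be told from calls lost by all genes. Without the 3 libraries that stood apart, 9 members were lower (61.8% of all genes) and 0 were higher (13.3% of all genes), with PRKDC at -4.74, HUWE1 at -3.36 and AHNAK at -1.30. Those libraries were left out for how they vary, which narrows the spread, so these values describe the 9 that remain. The scale mattered too. All genes split into 846 higher and 3066 lower calls as deposited, 2835 and 1723 after median-of-ratios size factors, and 1680 and 1441 after quantile normalization, which moved the median of all genes from -0.96 to -0.04 and -0.13. The difference of the 7 called members was negative with both, AHNAK turned to 0.37 and 0.16, and PLEC was called higher with size factors (1.76, adjusted p = 0.0215).

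In siEIF3G cells the same comparison gave smaller differences. Of the 10 members 0 were called by limma, where 1.33% of all genes were lower and 1.81% higher. Groups without overlap were found in 0 members. Of all 10605 genes tested, 1346 (12.7%) were lower without overlap and 997 were higher. PRKDC (-2.58, SE 0.84, adjusted p = 0.117), DYNC1H1 (-1.78, adjusted p = 0.184) and HERC2 (-1.42, adjusted p = 0.201) were the 3 members with an unadjusted p under 0.05. HUWE1 stood at -1.60, UBR4 at -1.39, MACF1 at -1.01, BIRC6 at -0.77, MYCBP2 at -0.74, AHNAK at -0.44 and PLEC at 0.19. The members' median was -1.20 and that of all genes -0.49.

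Here too PRKDC was near the bottom of the table, seventh lowest of the 10605 genes. Leaving out siCtrl input 1 or siEIF3G input 2 alone made it the 1 member called (adjusted p = 0.029 and 0.0411). The share of all genes called in those fits is not given here, so this call cannot be told from a rise of calls in all genes. Without all 3 libraries that stood apart, 9 members were lower (54.8% of all genes), from -3.89 in PRKDC to -0.78 in AHNAK. PLEC was then higher, by 0.65 (adjusted p = 0.0479, where 16.4% of all genes were higher). PLEC depended on siEIF3G polysomal 2, its highest library, without which its difference was -0.25 in place of 0.19.

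**Figure D2:**
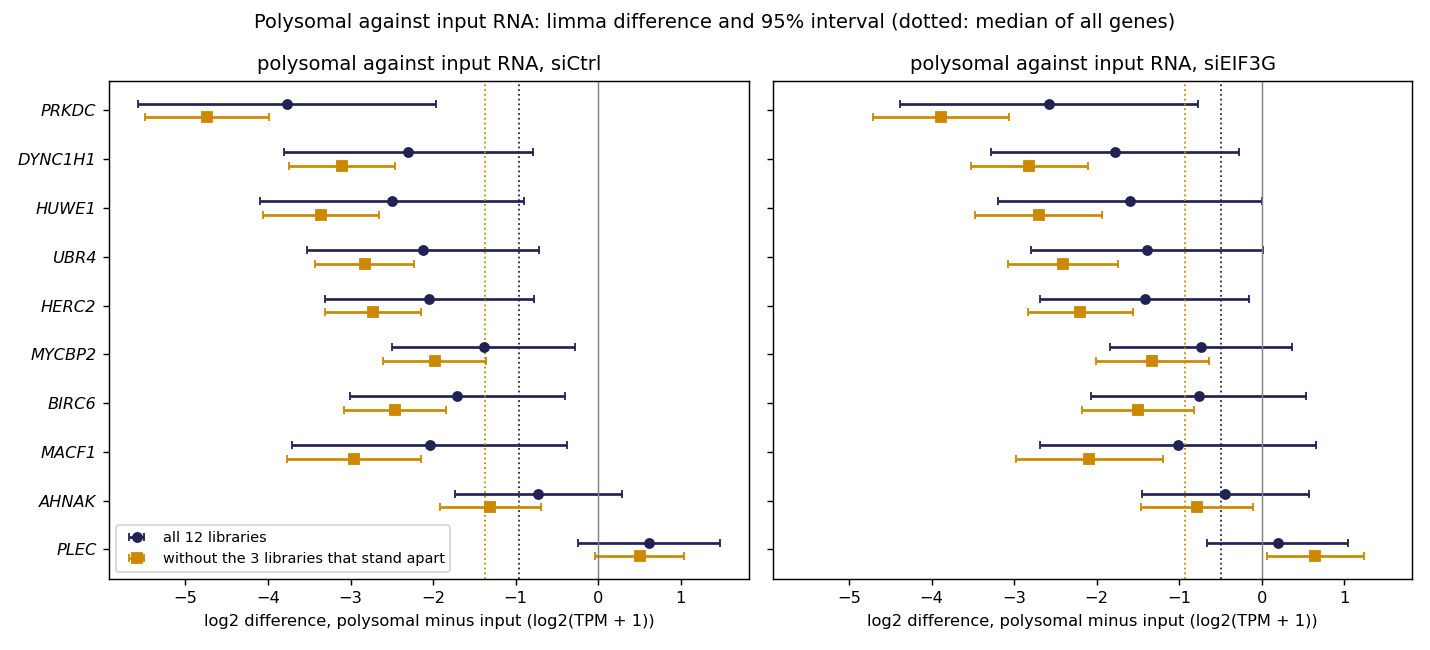
Limma difference of log2(TPM + 1), polysomal minus input, with its 95% interval for each member in siCtrl cells (left) and siEIF3G cells (right), from all 12 libraries (circles) and without the 3 libraries that stood apart (squares); dotted lines are the medians of all genes tested in each fit. PRKDC is lowest in every fit, at -3.77 and -2.58 from all 12 libraries, and PLEC is the one gene with positive values in both panels.

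The libraries that stood apart were most visible in the 8 genes other than AHNAK and PLEC. In siCtrl input 1 these 8 stood between 7.25% (BIRC6) and 17.0% (UBR4) of the mean of the other 2 siCtrl input libraries, while AHNAK stood at 26.0% and PLEC at 78.2%. In siEIF3G input 2 the 8 stood between 12.6% (BIRC6) and 28.7% (HERC2) of the mean of the other 2, AHNAK at 62.5% and PLEC at 82.9%. In siEIF3G polysomal 3 the direction was opposite. The 8 stood between 339% (HERC2) and 465% (MYCBP2) of the mean of the other 2 libraries, AHNAK at 138% and PLEC at 30.6%.

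Summed over the 8 genes, siCtrl input held 18.01, 117 and 179 TPM and siCtrl polysomal 8.01, 9.67 and 3.0. The siEIF3G input libraries held 128, 21.4 and 81.1 TPM and the siEIF3G polysomal libraries 8.66, 7.76 and 31.5. The polysomal library siEIF3G polysomal 3 was therefore above the input libraries siCtrl input 1 and siEIF3G input 2. AHNAK and PLEC together held between 37.1 TPM (siEIF3G polysomal 3) and 108 TPM (siEIF3G polysomal 2). The 8 made up 31.7%, 66.4% and 72.3% of the members' TPM in siCtrl input and 10.0%, 11.5% and 4.74% in siCtrl polysomal RNA. In siEIF3G libraries their share was 63.6%, 29.2% and 57.6% in input and 10.7%, 6.70% and 45.9% in polysomal RNA.

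A summary of how libraries deviate from their group means, computed over all genes tested with the 10 members left out, had a first axis that held 78.0% of the variance within groups. Its sign is arbitrary and was set so that the members' mean profile is high at the positive end. The siCtrl input libraries stood at -0.92, 0.26 and 0.66 and the siCtrl polysomal libraries at 0.07, 0.20 and -0.26. The siEIF3G input libraries stood at 0.32, -0.69 and 0.37 and the siEIF3G polysomal libraries at -0.19, -0.23 and 0.41. Within siCtrl input, siCtrl polysomal and siEIF3G polysomal, the order of the libraries on this axis was the order of their sums over the 8 genes. In siEIF3G input, replicates 1 and 3 stood in the opposite order. The sum over all 10 genes did not keep this order in siEIF3G polysomal RNA, where replicate 3 was highest on the axis and lowest in that sum (81.1, 116 and 68.6 TPM). The labels give a minimum RIN (RNA integrity number) of 8.5 for all libraries and no value for each. Ribosomal protein mRNAs (83 genes) took 35.7% of all TPM in siCtrl input 1 against 29.5% and 28.0% in the other 2, and 36.2% in siEIF3G input 2 against 38.6% and 33.3%. They took 26.6% in siEIF3G polysomal 3 against 26.7% and 25.03%.

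**Figure D3:**
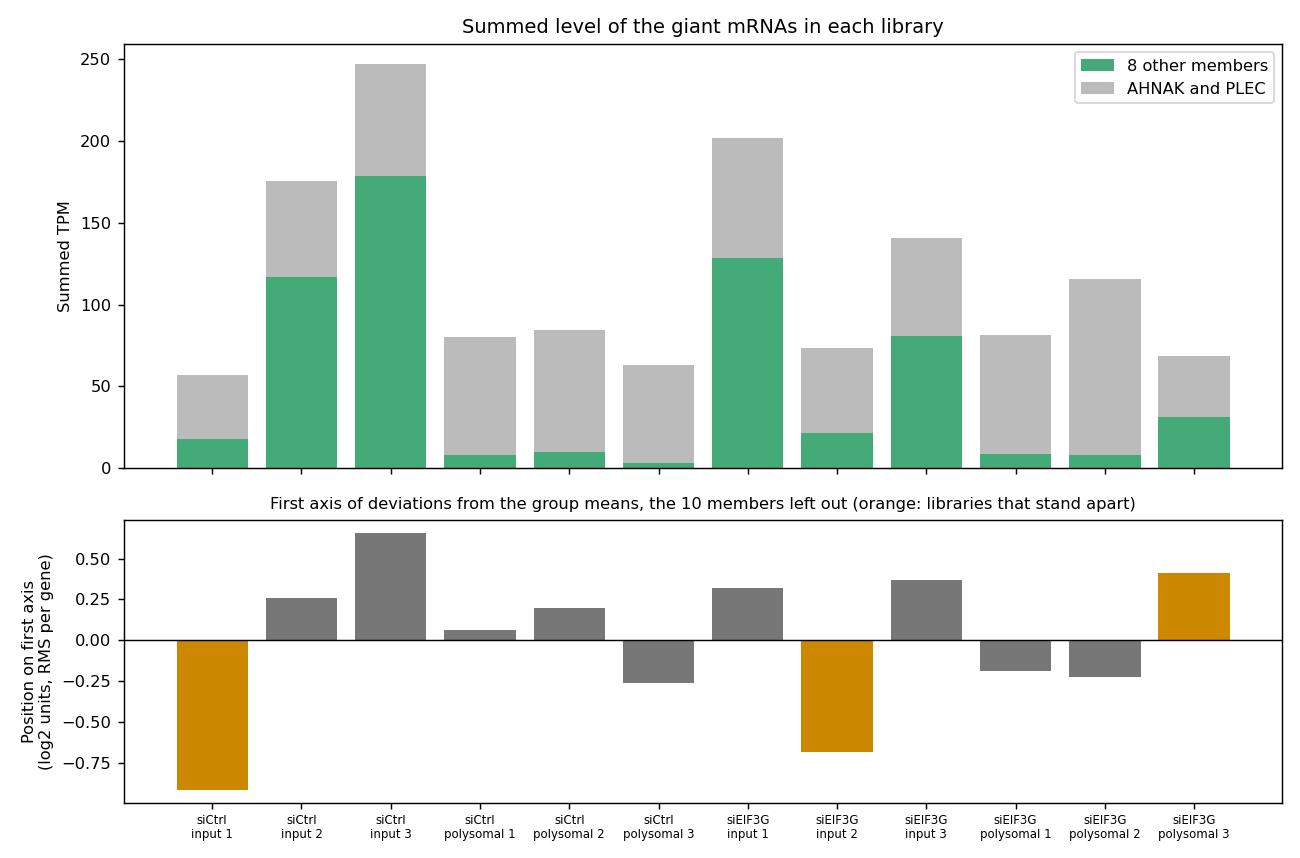
Upper panel, summed TPM of the 8 members other than AHNAK and PLEC (green) and of AHNAK and PLEC (grey) in each of the 12 libraries; lower panel, position of each library on the first axis of deviations from the group means with the members left out (log2 units, root mean square per gene), in orange for the 3 libraries that stood apart. The green bars run from 3.0 TPM in siCtrl polysomal 3 to 179 TPM in siCtrl input 3.

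The 8 genes were high and low in the same libraries, in proportions that were closer for some than for others. Over the 12 libraries, which share the same 4 groups and the same deviations, Pearson's r of log2(TPM + 1) lay between 0.933 and 0.998 for the 28 pairs among them. AHNAK correlated with the 8 at 0.849 to 0.928 and PLEC at -0.423 to -0.292. Divided by HUWE1 in the same library, DYNC1H1 ranged from 0.798 to 1.15, UBR4 from 0.563 to 0.898 and HERC2 from 0.356 to 0.559. The ratio varied more in MYCBP2 (0.0645 to 0.163), BIRC6 (0.101 to 0.279) and MACF1 (0.292 to 0.910). AHNAK ranged from 0.908 to 13.3 times HUWE1 and PLEC from 1.56 to 88.9 times. The ratio of PRKDC to HUWE1 separated the fractions in all 12 libraries. It was 2.34, 2.68 and 2.60 in siCtrl input and 2.39, 1.95 and 2.32 in siEIF3G input, against 0.968, 1.06 and 0.797 in siCtrl polysomal and 1.08, 0.923 and 1.20 in siEIF3G polysomal RNA. The libraries that stood apart were not exceptions to this ratio: siCtrl input 1 (2.34) and siEIF3G input 2 (1.95) were on the input side and siEIF3G polysomal 3 (1.20) on the polysomal side. PRKDC had a larger fitted difference than HUWE1 in siCtrl cells (-3.77 against -2.50). The ratio is drawn from the same values and is no separate result. In siCtrl polysomal 3 it rests on 0.47 and 0.59 TPM.

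Depletion of EIF3G did not change a member detectably in either fraction. In input RNA limma called 0 of the 10, where 0.0189% of all genes were called, and 0 had groups that did not overlap (3.68% of all genes); 0 had an unadjusted p under 0.05. The differences, siEIF3G minus siCtrl, ran from -0.59 in MACF1 (interval -2.26 to 1.08) and -0.59 in BIRC6 to 0.26 in PLEC (interval -0.60 to 1.11). PRKDC stood at -0.33 with an interval from -2.14 to 1.47, which leaves room for a change of more than 2 log2 units downward. In polysomal RNA 0 of 10 were called (0.0189% of all genes), 0 were apart (29.2% of all genes) and 0 had an unadjusted p under 0.05. These differences ran from -0.17 in PLEC to 0.85 in PRKDC (interval -0.95 to 2.66), with a median of 0.42 against 0.33 over all genes. The 3 polysomal libraries of siEIF3G cells were unlike each other, and without siEIF3G polysomal 3 PRKDC stood at 0.31.

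The difference of these effects between the fractions asks whether EIF3G depletion shifted a giant mRNA towards or away from polysomes. Limma called 0 of 10 members and 0% of all genes. At an unadjusted p under 0.05 there were 0 members and 19 genes in all. The estimates were positive in 9 members, from 0.28 in AHNAK to 1.19 in PRKDC (interval -1.36 to 3.74), and -0.42 in PLEC (interval -1.64 to 0.79). Most genes had a positive estimate too, 7834 of the 10605 tested. The members' median was 0.69 and that of all genes 0.38. These 3 comparisons share libraries with those of the fractions and are no independent measure of them.

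Partners of the giant proteins have ordinary coding lengths and gave a mixed picture in siCtrl cells. The partner lists were chosen with earlier results of these data known. Of 11 tested partners of DNA-PK in end joining, 4 were lower and 1 higher in polysomal RNA, with a median of -0.74. Of all genes, 28.9% were lower and 7.98% higher, with a median of -0.96. XRCC5, which encodes Ku80, was lower, with group means of 164 TPM in input and 25.5 in polysomal RNA (-2.49, adjusted p = 0.031). PAXX differed by -1.02 (adjusted p = 0.044). XRCC6, which encodes Ku70, differed by -0.76 and missed the threshold (adjusted p = 0.291).

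Of 25 tested dynein and dynactin genes, 12 were lower and 2 higher (28.9% and 7.98% of all genes), with a median of -1.24. The dynein light chain genes DYNLL1 (-0.91, adjusted p = 0.02) and DYNLRB1 (-1.30, adjusted p = 0.003) were lower with DYNC1H1, and the dynactin gene DCTN3 was higher (0.85, adjusted p = 0.036). Among 32 tested partners and shorter relatives of the ubiquitin genes, 18 were lower and 0 higher, with a median of -1.68. BIRC5, which encodes survivin, was lower by -1.06 (adjusted p = 0.025). KCMF1, a partner of UBR4, stood at -1.50 (adjusted p = 0.052), UBE2A at -0.94 and HECTD3 at 0.47, and these 3 missed the threshold.

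Of 20 tested plakin, spectrin and AHNAK partners, 10 were lower and 1 higher (28.9% and 7.98% of all genes), with a median of -1.46. S100A10, a small protein that binds AHNAK together with annexin A2, was lower by -1.88 (adjusted p = 0.002), and ANXA2 itself stood at -0.33 (adjusted p = 0.55). VIM and KRT18 encode filament proteins of the kind plectin binds, and they went in opposite directions. VIM was lower by -1.98 (adjusted p = 0.02) and KRT18 higher by 0.92 (adjusted p = 0.046). Without the 3 libraries that stood apart, 6 of 11, 19 of 25, 29 of 32 and 13 of 20 genes of the 4 lists were lower in siCtrl cells, and 2, 2, 0 and 1 were higher, where 61.8% of all genes were lower and 13.3% higher. Their medians were then -0.79, -1.59, -2.36 and -2.10, and that of all genes was -1.37.

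With siEIF3G, 0 of 11, 2 of 25, 0 of 32 and 1 of 20 genes of the 4 lists were lower and 0 were higher, where 1.33% of all genes were lower and 1.81% higher. DYNLRB1 (-1.40, adjusted p = 0.003) and S100A10 (-1.53, adjusted p = 0.009) were among them. Without the 3 libraries that stood apart, 3, 18, 29 and 12 genes of the lists were lower and 2, 3, 2 and 4 higher, where 54.8% of all genes were lower and 16.4% higher. Both the lists' counts and those of all genes thus depended on these 3 libraries.

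Other genes for giant proteins were looked at to see how far the members stand for the kind. A list of 58 such genes was written from general knowledge after the members' values were known, 54 of them are in the table, and 13 passed the minimum of 1 TPM. In siCtrl cells 4 of the 13 were lower in polysomal RNA and 0 higher, where 28.9% of all genes were lower, and the median of the 13 was -1.30. MDN1, the giant ATPase of ribosome assembly, had the lowest difference (-2.19, adjusted p = 0.041). RNF213 (-1.84), FAT1 (-1.66) and KMT2D (-1.60) were also lower. DST, the closest relative of MACF1, stood at -1.74 and missed the threshold (adjusted p = 0.061). HSPG2, which encodes the basement membrane proteoglycan perlecan, stood at 0.27 (adjusted p = 0.586). DNAH14, an axonemal dynein heavy chain, stood at -1.09 (adjusted p = 0.096). PKD1 stood at -0.27, and it and HYDIN (-1.30) have near-identical copies that may share their reads. In siEIF3G cells 0 of the 13 were called, with a median of -0.75. Of all genes, 1.33% were lower and 1.81% higher there, with a median of -0.49. Without the 3 libraries that stood apart, 11 of the 13 were lower in siCtrl cells (median -1.86, 61.8% of all genes lower) and 11 in siEIF3G cells (median -1.43, 54.8% of all genes lower). Giant coding length thus went with values from -3.77 to 0.62 over the members and these genes in siCtrl cells.

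**Figure D4:**
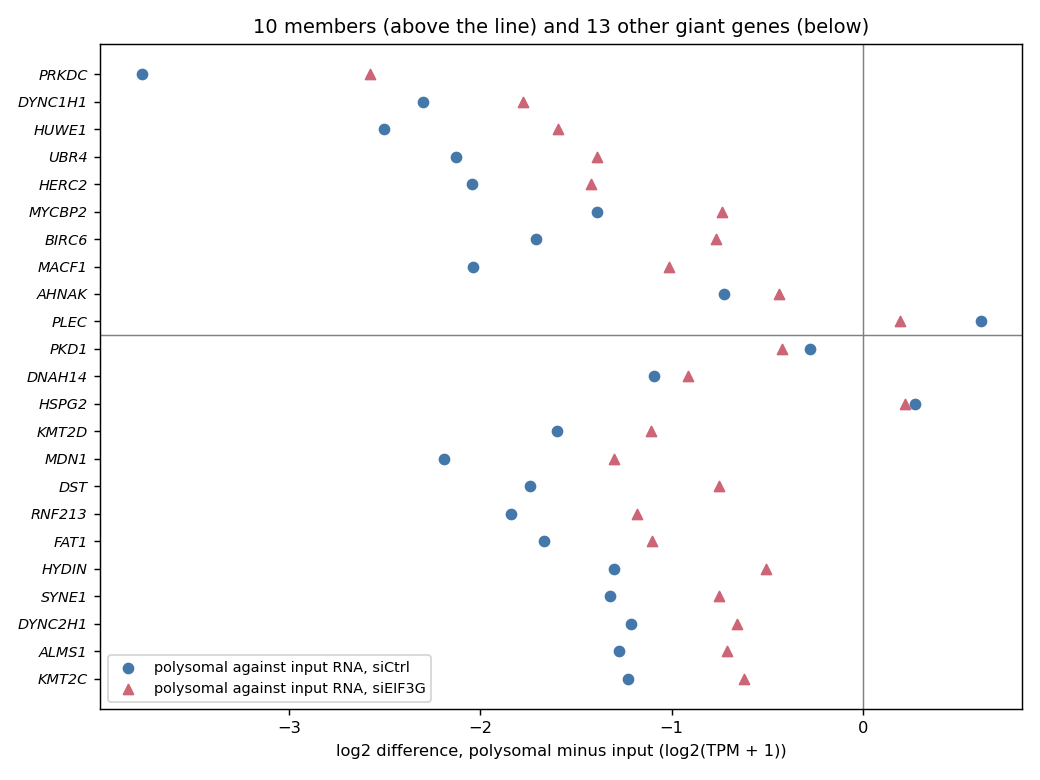
Limma difference of log2(TPM + 1), polysomal minus input, in siCtrl cells (circles) and siEIF3G cells (triangles) for the 10 members above the line and 13 other giant genes below it. PRKDC lies farthest left at -3.77, and PLEC and HSPG2 are the genes with positive values in both.

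The extent of the gene in the genome was used as a second measure of size, chosen after the data were seen, for the 10454 tested genes with a RefSeq span. In siCtrl cells the median difference was 0.05 for 2215 genes under 10 kb and -0.51 for 3107 genes from 10 to under 30 kb. It was -1.29 for 3425 genes from 30 to under 100 kb, -1.44 for 1458 genes from 100 to under 300 kb and -1.32 for 249 genes of 300 kb or more. In siEIF3G cells the 5 medians were 0.02, -0.25, -0.63, -0.75 and -0.71. Without the 3 libraries that stood apart they were 0.04, -0.79, -1.83, -2.04 and -1.85 in siCtrl cells and 0.15, -0.40, -1.25, -1.40 and -1.34 in siEIF3G cells. The giant genes therefore sat among genes that were mostly lower in polysomal RNA, and 92.7% of genes in the class of 100 to under 300 kb, which holds 7 members, had a negative difference in siCtrl cells. Within that class PRKDC, HUWE1, UBR4 and HERC2 lay below the lower quartile of -1.77, BIRC6 between the quartile and the median, and MYCBP2 and AHNAK above the median. PLEC and DYNC1H1 share the class of 30 to under 100 kb and lay outside its quartiles (-1.68 and -0.55) on opposite sides.

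**Figure D5:**
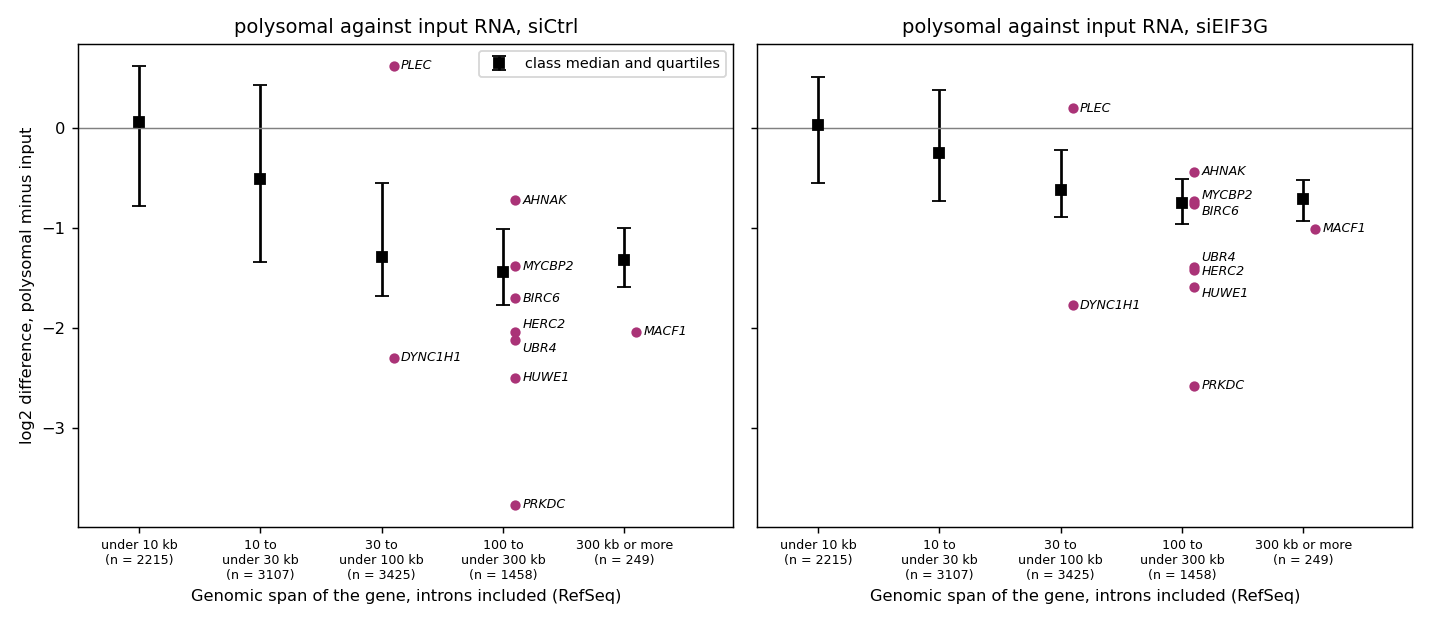
Median (square) and quartiles (bars) of the difference of log2(TPM + 1), polysomal minus input, for genes in 5 classes of genomic span in siCtrl cells (left) and siEIF3G cells (right), with the 10 members as points beside their class. The class medians fall from 0.05 under 10 kb to -1.44 at 100 to under 300 kb in siCtrl cells, and PLEC lies above the upper quartile of its class in both panels.

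The genes outside the members that were most like them were picked on these same libraries. Their lower polysomal means follow from that choice and are no separate result. The 8 genes whose log2(TPM + 1) over the 12 libraries was most like the members' mean standardized profile, among those with a mean of at least 5 TPM, were FAM126A, ARID1B, RPS6KB1, ZNF217, PLEKHA5, ARFGEF1, SHLD2 and GOLIM4, with Pearson's r from 0.993 to 0.989. Their spans reach from 30.6 kb for ZNF217 to 434.8 kb for ARID1B in the RefSeq table, where FAM126A had no entry under that name. ARID1B, a subunit of the BAF chromatin remodeler, averaged 10.7 TPM in siCtrl input and 1.18 in siCtrl polysomal RNA. RPS6KB1, which encodes the S6 kinase, averaged 15.4 and 2.58.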

How the data were processed

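RNA-seq of input and polysomal RNA from H1299 cells was read from the deposited table of TPM. The authors made these TPM with RSEM 1.3.1 on GRCh38.p13, per the submitters' processing notes; their annotation, strand setting and filters were not given in the sources used here. Each deposited column sums to 1000000 TPM, so the reads behind a value are unknown and no counting interval can be given.

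TPM were analysed as log2(TPM + 1) in limma 3.58.1 (R 4.3.3) with 4 group means, a mean-variance trend and 8 residual degrees of freedom. Genes averaging at least 1 TPM in the 12 libraries entered the fit (10605, with 5567 set aside). Benjamini-Hochberg adjustment ran over all of them in each of 5 comparisons. The fit was run on simulated data with independent noise for each gene and library. Those data lacked the shared deviations of the real libraries, so that run does not bear on the calls given here. With 3 libraries against 3, an exact permutation test of 1 gene could not go below 0.1, so none is given.

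Named genes are the 10 members, EIF3G, of the other giant genes the 6 most abundant and the highest and lowest difference, up to 4 abundant members of each partner list, and the 8 genes most like the members. RNF213, FAT1 and HYDIN were named after their values were seen. Some genes of the lists are not reported here. Members, lists and settings were chosen with earlier results of these data known, among them the 3 libraries that stood apart. Classes by protein length were planned and not made, since no protein table was used here; the genomic span classes and the list of other giant genes replaced them. Sequences are from RefSeq (GRCh38.p14). Alternatives were a pseudocount of 0.1 or 5, no minimum or one of 5 TPM, 3 rescalings, limma with robust moderation or with no trend, fits of the compared groups alone, a replicate block, and libraries left out.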

Additional observations from a re-analysis of the deposited data

How the results depend on the processing

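Over 24 alternative settings, the count of members called lower in polysomal RNA of siCtrl cells (7 as reported) was 1 with a pseudocount of 5, 1 with no minimum, 4 of 6 tested with a minimum of 5 TPM, 1 when fitting the compared groups alone, and 0 to 9 with 1 library left out. Of all genes, 836 of 10605 were lower with a pseudocount of 5 and 700 of 16172 with no minimum, against 3066 of 10605 as reported. With a minimum of 5 TPM, 1813 of 7261 were lower. For the compared groups alone and for single libraries left out, the share of all genes is not given here. The cause was not tested for the pseudocount and the groups fitted; a minimum changes which genes are tested. The members' median minus that of all genes (-1.08) was -1.74 and -0.54 with a pseudocount of 0.1 and 5, -1.73 with no minimum and -1.60 with a minimum of 5 TPM. In siEIF3G cells 10 members were called without the 3 libraries that stood apart (9 lower, 1 higher), where 54.8% of all genes were lower and 16.4% higher. The number was 0 to 1 with 1 library left out, and the median minus that of all genes moved from -0.71 to -1.22 without the 3. AHNAK changed sign with size factors (0.368 in siCtrl, 0.113 in siEIF3G cells) and quantile normalization (0.155 and 0.00797). In siEIF3G cells PLEC changed sign with a total without ribosomal protein genes (-0.0142) and without siEIF3G polysomal 2 (-0.245, in a range up to 0.736 with 1 library left out). For the knockdown, the median minus that of all genes in input RNA (-0.14) ranged from -0.557 to 0.0978 with 1 library left out, above 0 when siEIF3G input 2 (0.0978) or siCtrl input 3 (0.0881) was missing. In polysomal RNA (0.09) it ranged from -0.0623 to 0.223, and was -0.0623 without siEIF3G polysomal 3, alone or with the other 2 libraries that stood apart. No member was called in the knockdown comparisons or in their difference under any of these settings. The labels do not tie a replicate number to 1 lysate. Deviations of 18 same-numbered pairs correlated between -0.689 and 0.712, 6 of them above 0.1, and those of input and polysomal RNA at -0.131, 0.356 and -0.526 in siCtrl cells and at -0.454, 0.633 and 0.614 in siEIF3G cells. The numbers were therefore not taken as pairs. With the replicate block 5 members were called in siCtrl cells, without BIRC6 (adjusted p = 0.0584) and MYCBP2 (adjusted p = 0.065), 0 in siEIF3G cells and 0 in the knockdown comparisons, and all genes gave 1452 lower calls in siCtrl cells against 3066 without it. TPM carry no depth, so the precision of MYCBP2 and BIRC6, below 1 TPM in most polysomal libraries, cannot be stated beyond the spread between libraries.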
